A study of Homo sapiens with 12 samples.

Results

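The 8 genes described here, CDX1, CDX2, HNF4A, GPA33, LGALS4, CEACAM5, CEACAM6 and MUC13, are transcription factors and surface or secreted proteins that mark the lining of the colon. They were chosen by name, and each symbol matched 1 of the 63036 rows of the deposited table of TPM, a transcript abundance per transcript length scaled to a total of 1000000. The libraries come from HCT15 cells overexpressing RNF26, HCT15 control cells, HCT116 cells overexpressing RNF26 and HCT116 control cells, with 3 libraries in each of the 4 groups. Both are established human colorectal carcinoma lines, and RNF26 encodes a ubiquitin ligase anchored in the endoplasmic reticulum. The labels give neither the vector, nor what the control cells received, nor whether a group is a clone or a pool, nor whether its 3 libraries are separate cultures. All p-values therefore rest on the spread among these libraries alone, and that spread may be technical.

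CDX1 and CDX2 are homeobox factors that set intestinal fate, and HNF4A is a nuclear receptor that acts with them at many genes of absorptive cells. Several genes of the epithelial surface are known targets of this network, among them GPA33, which encodes the A33 glycoprotein of the basolateral membrane, and MUC13, which encodes a transmembrane mucin of the apical membrane. LGALS4 encodes galectin-4, a lectin of apical transport in gut cells, and CEACAM5 and CEACAM6 encode membrane-anchored carcinoembryonic antigen family proteins used as colorectal tumour markers. In poorly differentiated colon carcinoma lines such genes are often low or silent.

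The deposited gene numbers place these genes, all protein-coding, on GRCh38 as annotated by GENCODE 29. CDX2 (ENSG00000165556) lies at chr13:27962137-27971139 on the minus strand, HNF4A (ENSG00000101076) at chr20:44355700-44434596 on the plus strand, and MUC13 (ENSG00000173702) at chr3:124905442-124953819 on the minus strand. LGALS4 (ENSG00000171747) lies at chr19:38801671-38813364 and GPA33 (ENSG00000143167) at chr1:167052836-167166479, both on the minus strand. CDX1 (ENSG00000113722) lies at chr5:150166795-150184558, and CEACAM5 (ENSG00000105388) and CEACAM6 (ENSG00000086548) neighbour each other at chr19:41708585-41729798 and chr19:41750977-41772208, all on the plus strand.

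The 250 bases before the start are shown for the 4 genes whose HCT15 libraries separated by RNF26 status, to set their promoters side by side, and for GPA33, which shares a rare motif with MUC13. They are RefSeq's (GRCh38.p14), printed along the gene's own strand, and each ends just before the first base of the transcript. RefSeq's start lies inside the GENCODE span for CDX2, MUC13, GPA33, LGALS4 and the second HNF4A window. Capitals mark 3 motifs, searched on both strands: CAAAGTCC, a match to the HNF4 type (reverse GGACTTTG), TTTAT of the CDX type (reverse ATAAA), and GATAA of the GATA type (reverse TTATC). The motifs were chosen with the expression values known. HNF4A has 2 windows, since it is transcribed from alternative promoters.
CDX2 chr13:27969316-27969565, minus strand: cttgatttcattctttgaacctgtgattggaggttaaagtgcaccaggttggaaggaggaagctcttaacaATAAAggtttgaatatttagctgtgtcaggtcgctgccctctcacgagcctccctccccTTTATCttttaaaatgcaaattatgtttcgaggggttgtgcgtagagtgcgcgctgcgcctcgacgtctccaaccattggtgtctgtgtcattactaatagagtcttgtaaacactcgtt
HNF4A window 1, chr20:44355449-44355698, plus strand: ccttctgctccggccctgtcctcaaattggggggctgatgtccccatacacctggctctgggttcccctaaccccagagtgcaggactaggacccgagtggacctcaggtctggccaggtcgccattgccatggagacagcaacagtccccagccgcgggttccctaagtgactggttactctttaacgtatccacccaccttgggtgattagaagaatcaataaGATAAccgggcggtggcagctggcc
HNF4A window 2, chr20:44400989-44401238, plus strand: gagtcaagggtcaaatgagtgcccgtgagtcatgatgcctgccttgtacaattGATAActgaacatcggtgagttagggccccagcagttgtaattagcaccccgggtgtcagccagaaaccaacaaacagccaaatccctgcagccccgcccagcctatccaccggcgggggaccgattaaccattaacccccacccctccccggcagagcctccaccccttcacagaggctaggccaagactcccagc
MUC13 chr3:124934752-124935001, minus strand: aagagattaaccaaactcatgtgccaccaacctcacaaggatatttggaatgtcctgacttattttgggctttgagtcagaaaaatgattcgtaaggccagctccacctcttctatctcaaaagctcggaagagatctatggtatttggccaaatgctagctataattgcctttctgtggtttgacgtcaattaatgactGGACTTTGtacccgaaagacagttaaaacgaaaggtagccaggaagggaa
LGALS4 chr19:38812946-38813195, minus strand: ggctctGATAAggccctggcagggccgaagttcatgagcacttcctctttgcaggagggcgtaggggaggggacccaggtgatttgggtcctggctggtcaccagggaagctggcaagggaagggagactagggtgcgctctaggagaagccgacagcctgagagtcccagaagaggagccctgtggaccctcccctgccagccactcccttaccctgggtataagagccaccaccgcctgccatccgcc
GPA33 chr1:167090378-167090627, minus strand: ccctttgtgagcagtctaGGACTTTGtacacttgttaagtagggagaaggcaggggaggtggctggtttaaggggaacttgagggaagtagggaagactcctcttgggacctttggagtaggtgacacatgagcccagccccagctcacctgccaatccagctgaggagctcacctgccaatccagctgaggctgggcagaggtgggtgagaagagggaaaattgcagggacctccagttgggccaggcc

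The CDX2 window held TTTAT or its reverse 2 times, and 1 of these overlapped a reverse GATA match in the run TTTATC. Each HNF4A window and the LGALS4 window held GATAA 1 time. MUC13 and GPA33 held the 8-letter HNF4 match, beginning 50 and 232 bases before the start. Of 35116 promoter windows of the same length, 1.02% held the HNF4 match, 32.7% the CDX match and 20.4% the GATA match, so that the letters of the last pair are common. The windows of CEACAM5 and CEACAM6, which are not printed, each held the CDX match 1 time and were 73.6% identical to each other when aligned. A match describes letters and is not a bound site.

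RNF26 itself, the check of the labels, had 54.2 ± 0.562 TPM in HCT15 RNF26 libraries and 27.0 ± 0.762 TPM in HCT15 controls, and 296 ± 39.4 TPM in HCT116 RNF26 libraries and 16.8 ± 1.44 TPM in HCT116 controls (SD, n = 3 each). All libraries labelled RNF26 lay above the controls of their line. Libraries of 1 group correlated at 0.969 to 0.988 over log2 values, and between 13582 and 14135 genes reached 1 TPM in a library. All 12 general epithelial markers passed the filter on low values, and their summed level was 4838 to 5014 TPM in HCT15 RNF26 libraries, 5252 to 6142 TPM in HCT15 controls, 2962 to 3406 TPM in HCT116 RNF26 libraries and 3175 to 3479 TPM in HCT116 controls. Of markers of cells the cultures should not hold, 7 fibroblast markers summed to at most 2.8 TPM in any library and 5 endothelial markers to at most 0.68 TPM. The 6 immune markers summed to 11.2 to 13.0 TPM in HCT15 RNF26 libraries, 13.6 to 22.0 TPM in HCT15 controls, 6.35 to 7.77 TPM in HCT116 RNF26 libraries and 8.22 to 10.2 TPM in HCT116 controls, nearly all of it CD68 and CD14, and the other 4 stayed below 1 TPM in all 12 libraries. The 12 gastric markers summed to 0.67 to 0.97 TPM in HCT15 RNF26 libraries, 1.44 to 1.65 TPM in HCT15 controls, 38.9 to 39.5 TPM in HCT116 RNF26 libraries and 44.2 to 48.4 TPM in HCT116 controls, and ANXA10 gave most of the HCT116 sum. In bulk RNA, fewer cells of a kind and less RNA in each cell cannot be told apart.

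CDX2 was the most abundant of the 8 genes in each of the 4 groups on the TPM scale, which is per transcript length. HNF4A and MUC13 followed at a few TPM in HCT15, LGALS4 was near 1 TPM in HCT15 RNF26 libraries only, and the other 4 stayed below 1 TPM in all 12 libraries. Genes with a TPM of 1 or more in at least 3 libraries were tested, 15584 in all. Of the 8 genes, 3 passed that filter (CDX2, HNF4A and MUC13) and 5 did not, so counts of calls below are of 3 genes and not of 8. CDX2 thus reached 1 TPM in all 12 libraries, HNF4A in 11 and MUC13 in the 6 HCT15 libraries alone. LGALS4 did so in 2 HCT15 RNF26 libraries, and CDX1, CEACAM5, CEACAM6 and GPA33 in no library of either line.

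**Figure D1:**
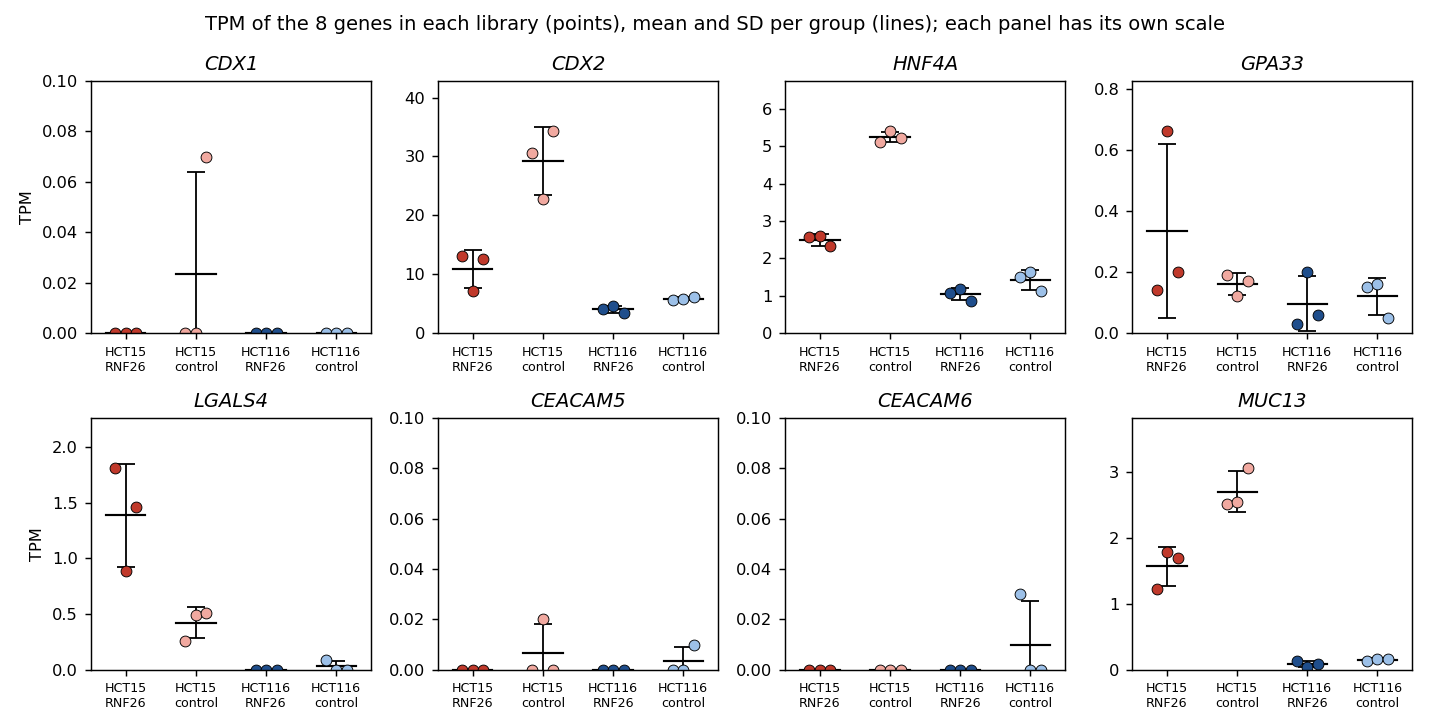
TPM of each of the 8 genes (panels, each with its own vertical scale) in the 12 libraries (points), with the mean and SD of each group of 3 libraries (lines). CDX2, HNF4A and MUC13 lie lower in HCT15 RNF26 libraries than in HCT15 controls, LGALS4 lies higher, and CDX1, CEACAM5 and CEACAM6 reach at most 0.07 TPM.

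RNF26 libraries of HCT15 held less mRNA of the factors CDX2 and HNF4A and of the mucin gene MUC13 and more of the lectin gene LGALS4. CDX2 fell to 10.9 ± 3.30 TPM, against 29.2 ± 5.82 TPM in controls, HNF4A to 2.49 ± 0.151 TPM, against 5.25 ± 0.141 TPM in controls, and MUC13 to 1.57 ± 0.299 TPM, against 2.70 ± 0.309 TPM in controls (SD, n = 3 each). LGALS4 averaged 1.39 ± 0.464 TPM in RNF26 libraries and 0.420 ± 0.139 TPM in controls (SD, n = 3 each). These 3 falls stood among many: limma called 36.6% of all tested genes in this comparison, 31.2% lower and 5.39% higher, and the median gene had a log2 fold change of -0.17. The split depends on the scaling: 4857 genes were called lower and 840 higher, against 2600 and 2242 with median-ratio scaling, 2521 and 2275 with quantile normalization, 3490 and 1413 without mitochondrial and ribosomal protein genes, and 2406 and 1767 corrected for GC content and transcript length.

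CDX2, the caudal-type homeobox factor, had 13.0, 7.07 and 12.5 TPM in the HCT15 RNF26 libraries, against 30.6, 22.8 and 34.3 TPM in the HCT15 controls. The groups did not overlap, and the lowest value of each was its replicate 2. The ratio of means was 0.372, and the log2 fold change of TPM + 1 was -1.37 (SE 0.203, limma with Benjamini-Hochberg adjusted p = 4.79e-04), or -1.21 relative to the median gene. Only 61 of the 15584 tested genes, 0.391%, had a lower fold change. Corrected for GC content and transcript length the CDX2 value was -0.95 (limma adjusted p = 0.00661).

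HNF4A had 2.56, 2.60 and 2.32 TPM in the HCT15 RNF26 libraries, against 5.12, 5.40 and 5.23 TPM in the HCT15 controls. Each group was tight, and all RNF26 values lay well under the lowest control. The ratio of means was 0.475, and the log2 fold change was -0.84 (SE 0.109, limma adjusted p = 2.29e-04), or -0.67 relative to the median gene, with 4.19% of tested genes lower. The value was -0.45 (limma adjusted p = 0.00649) corrected for GC content and length, and -0.45 with a pseudocount of 5. HNF4A overlaps 2 antisense genes, HNF4A-AS1 and AL117382.2, that reached at most 0.24 and 0.26 TPM, and the sources used here do not say whether counting used the strand.

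MUC13 had 1.23, 1.79 and 1.69 TPM in the HCT15 RNF26 libraries, against 2.51, 2.54 and 3.06 TPM in the HCT15 controls. The groups did not overlap. The ratio of means was 0.581 and the log2 fold change -0.53 (SE 0.119, limma adjusted p = 0.00508), or -0.37 relative to the median gene, with 17.4% of tested genes lower. At so low a level the value depends on the pseudocount: it was -0.76 (limma adjusted p = 0.0448) with 0.1 and -0.23 with 5.

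LGALS4 had 1.81, 0.89 and 1.46 TPM in the HCT15 RNF26 libraries, against 0.26, 0.49 and 0.51 TPM in the HCT15 controls. All RNF26 libraries were above all controls, and the ratio of means was 3.30. It did not pass the filter, since 2 libraries reached 1 TPM. Fitted with no filter on low values, where 1.94% of 35454 genes were called higher, its log2 fold change was 0.73 (SE 0.133, limma adjusted p = 0.00499). Of the same fit, 11.5% of genes were called lower.

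GPA33, whose product is a target of colorectal tumour antibodies, had 0.14, 0.66 and 0.20 TPM in the HCT15 RNF26 libraries, against 0.19, 0.12 and 0.17 TPM in the HCT15 controls. The groups overlapped, and the higher mean of the RNF26 libraries came from replicate 2 (exact permutation test of TPM, two-sided p = 0.4). GPA33 shares its span with the pseudogene AL451050.1 on the same strand, which averaged 0.253 TPM in RNF26 libraries and 0.237 TPM in controls of HCT15, so its low values are uncertain. CDX1 was listed at 0 in 5 of the 6 HCT15 libraries and at 0.07 TPM in control replicate 3. CEACAM5 was listed at 0 in 5 of them and at 0.02 TPM in control replicate 2, and CEACAM6 at 0 in all 6. These 2 genes are close paralogs whose reads can be shared by the counting.

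The 3 tested genes were called lower in HCT15 in each alternative setting that tested them, of 24 settings for CDX2 and HNF4A and 23 for MUC13. Their log2 fold changes ran over those settings from -1.53 to -0.95 for CDX2, -1.05 to -0.45 for HNF4A and -0.76 to -0.23 for MUC13, and the highest adjusted p of limma were 0.0192, 0.00649 and 0.0448. Libraries did not overlap for 43.1% of tested genes in this comparison, 35.9% lower and 7.23% higher. Mitochondrial and ribosomal protein genes took 44.7 to 46.5% of TPM in HCT15 RNF26 libraries and 39.5 to 43.4% in HCT15 controls, and control replicate 3 had the highest mitochondrial share of the series, 25.9%. With those genes left out and the rest rescaled, the fold changes were -1.29 for CDX2, -0.83 for HNF4A and -0.53 for MUC13. Without control replicate 3 they were -1.25, -0.84 and -0.46.

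**Figure D2:**
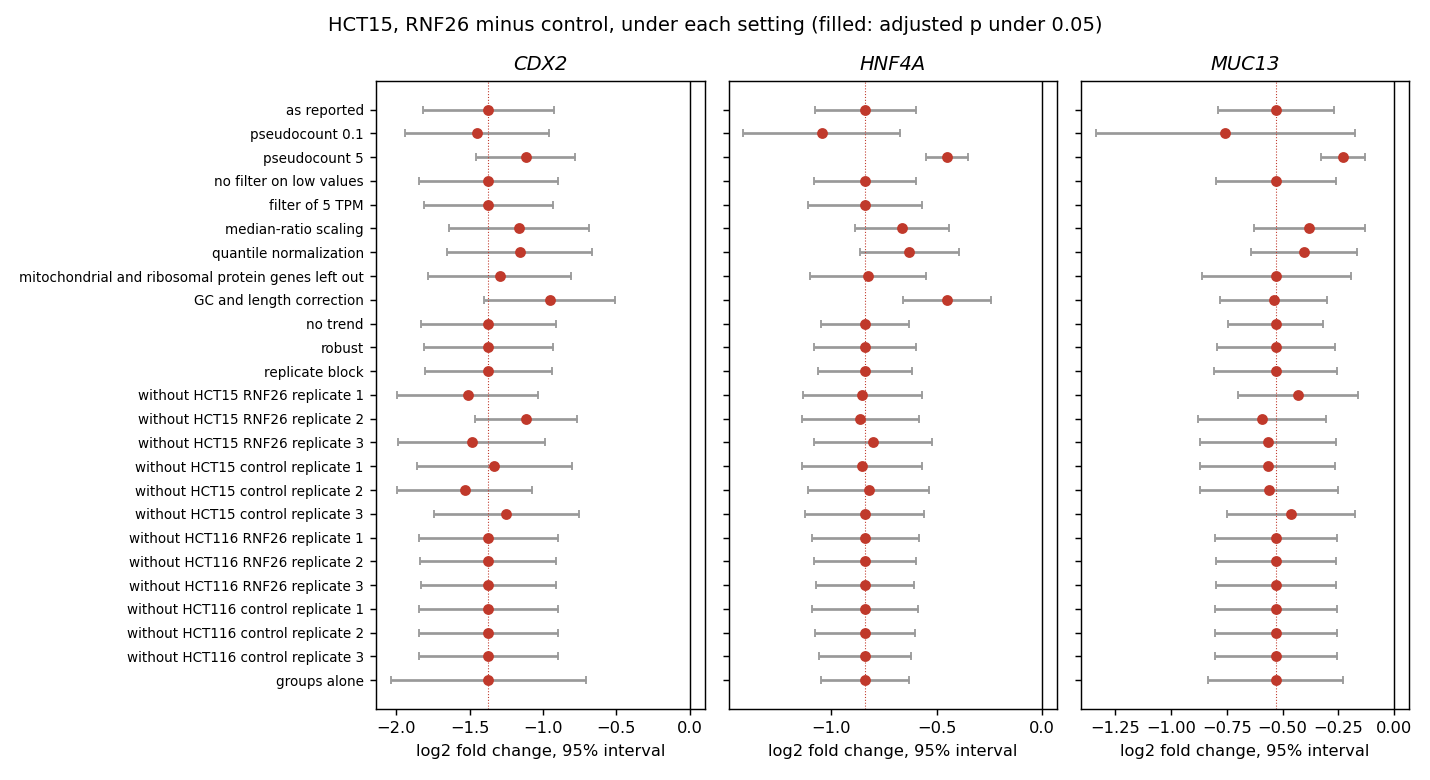
Log2 fold change of TPM + 1 (or the pseudocount named), HCT15 RNF26 minus HCT15 control, for CDX2, HNF4A and MUC13 (panels) under each setting (rows), with 95% intervals of limma. Filled points are called at an adjusted p under 0.05, the dotted line is the reported value, and all points lie below 0; MUC13 was not tested with the filter of 5 TPM.

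In HCT116 none of the 3 tested genes was called between RNF26 and control libraries, where limma called 0.00642% of tested genes, RNF26 alone. With no filter, in a fit that called 0.031% of 35454 genes, none of the 8 was called either. All but CDX2 and HNF4A lay below 1 TPM in all HCT116 libraries, where a change on this scale had to be near 0. CDX2 had 4.15, 4.60 and 3.44 TPM in HCT116 RNF26 libraries, against 5.69, 5.73 and 6.14 TPM in HCT116 controls. All RNF26 values lay below all controls, a separation seen downward for 5.56% of tested genes. The log2 fold change of CDX2 was -0.44 (SE 0.203, 95% interval -0.89 to 0.0046, unadjusted p = 0.0520, limma adjusted p = 1), and an exact permutation test of TPM gave p = 0.1, the smallest that 3 against 3 libraries allow.

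HNF4A had 1.07, 1.18 and 0.86 TPM in HCT116 RNF26 libraries, against 1.49, 1.64 and 1.12 TPM in HCT116 controls. The groups overlapped, as the lowest control lay under the highest RNF26 value. Its log2 fold change was -0.24 (SE 0.109, unadjusted p = 0.0467, limma adjusted p = 1). HNF4A was thereby the 1 gene of the 3 with an unadjusted p under 0.05, as had 657 of all 15584 tested genes. MUC13 was near the bottom of the scale with 0.13, 0.04 and 0.09 TPM in HCT116 RNF26 libraries, against 0.13, 0.16 and 0.17 TPM in controls, and the groups overlapped. Its ratio of means was 0.565, against 0.581 in HCT15. The log2 fold change of TPM + 1, which is held near 0 at this level, was -0.09 (SE 0.119, limma adjusted p = 1), and it was -0.47 (limma adjusted p = 1) with a pseudocount of 0.1.

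The other 5 genes were at or near 0 in HCT116. GPA33 had 0.03, 0.20 and 0.06 TPM in RNF26 libraries, against 0.15, 0.16 and 0.05 TPM in controls. LGALS4 was listed at 0 in all 3 RNF26 libraries and at 0.09, 0 and 0 TPM in controls, so that no fold is given. CDX1 was listed at 0 in all 6 libraries, CEACAM5 reached 0.01 TPM in 1 control and CEACAM6 0.03 TPM in 1 control. A set of 18 housekeeping genes was at 0 in none of the 12 libraries.

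In the fit as reported, the RNF26 effect on CDX2 and HNF4A was larger in HCT15 than in HCT116 by the test of the difference itself. The CDX2 call ended in 13 and the HNF4A call in 7 of 23 alternative settings. That test called 20.5% of tested genes, 18.7% lower and 1.8% higher in HCT15. For CDX2 the difference of log2 fold changes, HCT15 minus HCT116, was -0.93 (SE 0.288, 95% interval -1.56 to -0.30, limma adjusted p = 0.0423), for HNF4A -0.60 (SE 0.154, limma adjusted p = 0.0210) and for MUC13 -0.44 (SE 0.168, limma adjusted p = 0.0853). The MUC13 value depends on the pseudocount, since HCT116 was near 0: it was -0.29 (limma adjusted p = 0.634) with a pseudocount of 0.1. The median gene had a difference of -0.18, so relative to it the values were -0.75 for CDX2, -0.41 for HNF4A and -0.26 for MUC13. Of all genes 2909 were called lower and 281 higher, against 1146 and 934 with median-ratio scaling, 1076 and 856 with quantile normalization, 1811 and 512 without mitochondrial and ribosomal protein genes, and 1013 and 629 corrected for GC content and length. Single libraries moved these counts as well: 636 genes were called higher without HCT15 control replicate 2, and 168, 132, 166 and 137 without HCT116 RNF26 replicate 1, HCT116 RNF26 replicate 2, HCT116 control replicate 1 and HCT116 control replicate 3, while 1809 were called lower without HCT116 RNF26 replicate 2.

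Both calls ended under settings that move the scale or the gene set. The adjusted p of limma for CDX2 was 0.0637 with a pseudocount of 0.1, 0.112 with no filter, 0.146 with median-ratio scaling, 0.173 with quantile normalization, 0.104 without mitochondrial and ribosomal protein genes and 0.259 corrected for GC content and length, where the CDX2 difference was -0.52. For HNF4A the same settings gave 0.0871, 0.0520, 0.0802, 0.137, 0.0697 and 0.304, with a difference of -0.22 in the last. The CDX2 call was also lost without HCT15 control replicate 1 or 3, HCT116 RNF26 replicate 1 or 2, or any 1 HCT116 control (limma adjusted p 0.0726 to 0.0992), and the HNF4A call without HCT116 RNF26 replicate 2 (0.0544). MUC13 was called with a pseudocount of 5 (0.0347) and without a mean-variance trend (0.0447).

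LGALS4 had a difference of 0.78 (SE 0.189, limma adjusted p = 0.0413) with no filter, in a fit that called 0.558% of genes higher. This rests on an HCT116 level at or near 0, and on log2(TPM + 1) values that understate changes of low genes. RNF26 mRNA in the overexpressing libraries was 0.183 times as high in HCT15 as in HCT116, while the lower ratios of RNF26 to control means of CDX2 and HNF4A were in HCT15 (0.372 and 0.475, against 0.694 and 0.732 in HCT116). Whether the RNF26 level has a part in this was not tested.

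**Figure D3:**
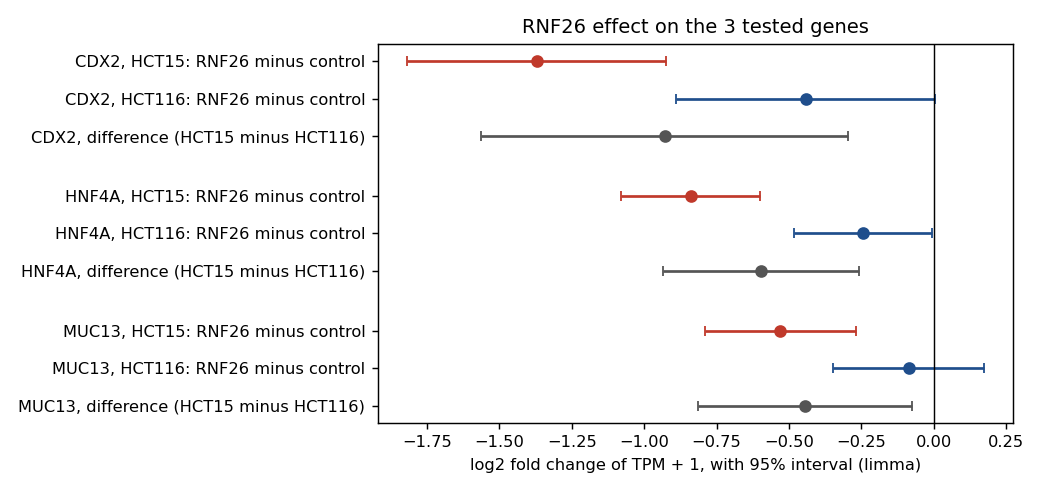
Log2 fold changes of TPM + 1 of CDX2, HNF4A and MUC13 with 95% intervals of limma, for RNF26 minus control in HCT15 (red), RNF26 minus control in HCT116 (blue) and the difference between lines (grey). The HCT15 intervals lie below 0 for all 3 genes, and the difference is -0.93 for CDX2, -0.60 for HNF4A and -0.44 for MUC13.

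Between the lines, HCT15 held more CDX2, HNF4A and MUC13 mRNA than HCT116 in both arms. In RNF26 libraries the ratio of means, HCT15 over HCT116, was 2.67 for CDX2, 2.41 for HNF4A and 18.1 for MUC13, with log2 differences of 1.19 (SE 0.203, limma adjusted p = 2.80e-04), 0.78 (SE 0.109, limma adjusted p = 5.93e-05) and 1.24 (SE 0.119, limma adjusted p = 2.72e-06). In controls the ratio was 4.99 for CDX2, 3.71 for HNF4A and 17.6 for MUC13, with log2 differences of 2.12 (SE 0.203, limma adjusted p = 2.62e-06), 1.38 (SE 0.109, limma adjusted p = 5.29e-07) and 1.68 (SE 0.119, limma adjusted p = 2.01e-07). Limma called 67.9% of tested genes between the RNF26 arms, 34.1% higher in HCT15, and 69.5% between the controls, 43.6% higher in HCT15, where the median gene was 0.22 higher on the log2 scale in HCT15. Between controls 6790 genes were higher and 4046 lower in HCT15, against 5774 and 4985 with median-ratio scaling, 5473 and 5243 with quantile normalization, and 5395 and 5094 corrected for GC content and length. MUC13 passed the filter through its HCT15 libraries alone and so had to differ between lines; its calls there are a description.

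For CDX2, HNF4A and MUC13 the 4 groups stood in the order HCT116 RNF26, HCT116 control, HCT15 RNF26 and HCT15 control, from low to high. The HCT15 RNF26 libraries thus remained above the HCT116 controls, with a ratio of means of 1.86 for CDX2 and 1.76 for HNF4A and no overlap (exact permutation test, p = 0.1 for each, the smallest possible), as for 37.5% of tested genes. Neighbours in the order were separated in all cases for CDX2, while for HNF4A and MUC13 the 2 HCT116 groups overlapped. For GPA33 the ranges of all 4 groups overlapped. LGALS4 had another order, with HCT15 RNF26 first, HCT15 control next and both HCT116 groups at or near 0. Fitted with no filter, LGALS4 was higher in HCT15 by 1.24 (limma adjusted p = 3.80e-05) between RNF26 libraries and by 0.46 (limma adjusted p = 0.0213) between controls, where 16.9% and 21.1% of 35454 genes were called higher.

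Over the 12 libraries log2 levels of CDX2 and HNF4A had a Pearson correlation of 0.960, CDX2 and MUC13 of 0.916, and HNF4A and MUC13 of 0.945. Within the 6 HCT15 libraries these were 0.884, 0.787 and 0.898, and within the 6 HCT116 libraries 0.753, 0.605 and 0.380. The points share their group structure and, within a library, the fixed TPM total, so the values describe these libraries alone. Among 9641 tested genes with a mean of 5 TPM or more, the 3 most like CDX2 were ROGDI (0.980), UBALD1 (0.977) and NANS (0.976), those most like HNF4A were POR (0.992), RHBDD2 (0.991) and VCL (0.991), and those most like MUC13 were RGL2 (0.997), FUT1 (0.995) and SPIRE1 (0.995). POR encodes the reductase that serves cytochrome P450 enzymes and averaged 57.4 TPM in HCT15 RNF26 libraries and 103 TPM in HCT15 controls, and 32.8 TPM in HCT116 RNF26 libraries and 37.3 TPM in HCT116 controls. FUT1, an H-antigen fucosyltransferase, averaged 19.5 TPM in HCT15 RNF26 libraries and 39.1 TPM in HCT15 controls, and 2.08 TPM in HCT116 RNF26 libraries and 2.07 TPM in HCT116 controls.

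Other intestinal transcription factors were lower in HCT15 RNF26 libraries too. Of 35 listed factors 19 were tested, among them CDX2 and HNF4A, and 16 fell, 1 rose and 2 did not pass. Their median log2 fold change was -0.72, against -0.17 for all tested genes, of which 31.2% fell. KLF5, a zinc finger factor of crypt cells, fell to 28.1 ± 1.11 TPM, against 65.6 ± 8.50 TPM in HCT15 controls (SD, n = 3 each), with a log2 fold change of -1.19 (SE 0.107, limma adjusted p = 4.40e-05). SOX9, a factor of crypt base cells, fell to 19.1 ± 1.29 TPM, against 41.5 ± 7.47 TPM in controls, and GATA6, an endoderm factor, to 3.14 ± 0.407 TPM, against 7.62 ± 0.860 TPM in controls (SD, n = 3 each).

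The log2 fold changes of SOX9 and GATA6 were -1.07 (SE 0.126, limma adjusted p = 1.42e-04) and -1.06 (SE 0.125, limma adjusted p = 1.41e-04). The factor that rose was PPARG, with 3.11 ± 0.610 TPM in HCT15 RNF26 libraries and 2.22 ± 0.196 TPM in HCT15 controls (SD, n = 3 each), and those that did not pass were GFI1 and EHF. These 3 were named after their values were seen. The PPARG call ended with a pseudocount of 5 (adjusted p = 0.0592), with the HCT15 groups fitted alone (0.125) and without HCT15 RNF26 replicate 2 or 3 or HCT15 control replicate 1 (0.0767 to 0.0835). The 16 factors that fell kept their direction under other scalings, except PDX1 in the GC and length correction, but fewer were called. With median-ratio scaling 11 of 19 were called lower (median -0.54), against 2600 of all 15584 genes. With quantile normalization it was 11 (median -0.50), against 2521 of 15584. Without mitochondrial and ribosomal protein genes it was 13, against 3490 of 15487. Corrected for GC content and length it was 10 (median -0.31), against 2406 of 14849. PPARG was higher in each. In HCT116 limma called 0 of the 19, with a median of -0.06, and 2 of them, HNF4A and FOXA3, had an unadjusted p under 0.05. Of the 19, PDX1, FOXA1 and ASCL2 stayed below 1 TPM in all HCT116 libraries, where this scale understates a change. ASCL2 reached at most 0.06 TPM there, so its effect had to be near 0. FOXA1 averaged 0.597 TPM in HCT116 RNF26 libraries and 0.743 TPM in HCT116 controls, and PDX1 0.443 and 0.530 TPM. The difference between lines was called lower for 11 of the 19, where 18.7% of all tested genes were. Without PDX1, FOXA1 and ASCL2 it was 9 of 16. Corrected for GC content and length it was 3 (KLF5, SOX9 and FOXA3), where 1013 of 14849 genes were called lower.

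**Figure D4:**
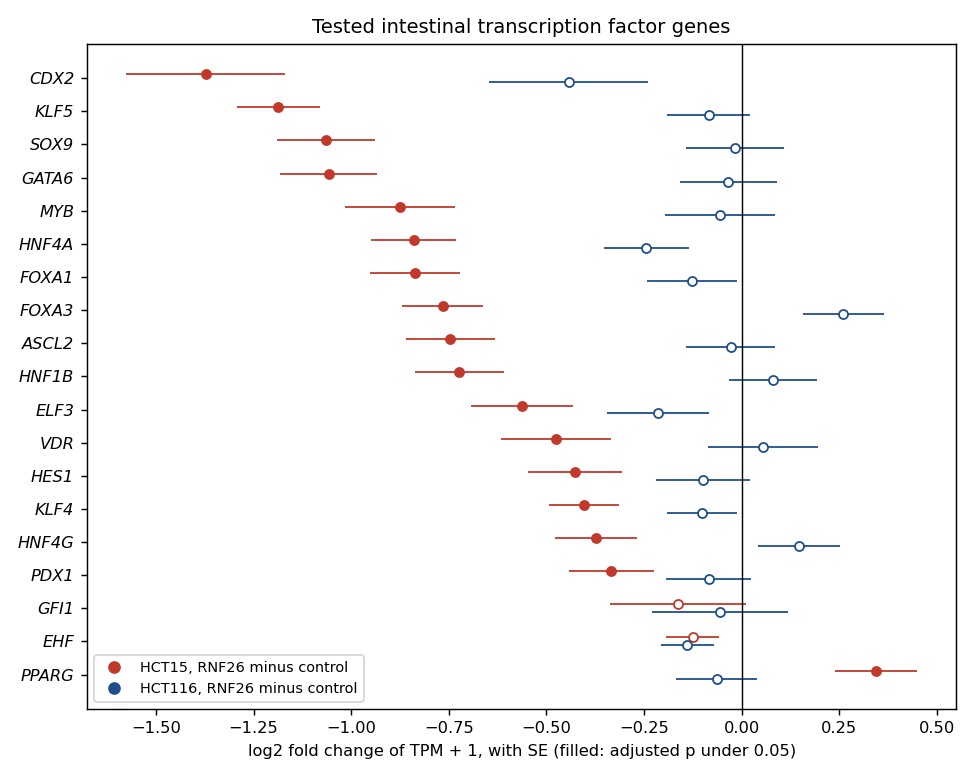
Log2 fold change of TPM + 1, RNF26 minus control, of the 19 tested intestinal transcription factor genes (rows) in HCT15 (red) and HCT116 (blue), with the SE as bars and filled points where limma's adjusted p was under 0.05. CDX2 has the lowest value in both lines; in HCT15 16 factors are called lower and PPARG higher, and in HCT116 none is called.

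Genes of differentiated colonocytes were mostly below 1 TPM in both lines. Of 35 listed, 25 stayed below 1 TPM in all 12 libraries and 7 of those were at 0 throughout; 10 were tested. KRT20 and USH1C passed the filter through HCT116 alone and, below 1 TPM in all HCT15 libraries, could hardly change there. Of the other 8, 1 fell in HCT15, 1 rose and 6 did not pass, with a median of -0.06, where 31.2% of all tested genes fell and 5.39% rose. VIL1, the microvillus actin-bundling protein villin, fell to 25.8 ± 0.525 TPM, against 81.7 ± 21.1 TPM in HCT15 controls (SD, n = 3 each), a log2 fold change of -1.59 (SE 0.160, limma adjusted p = 6.40e-05). CA2, a carbonic anhydrase, rose to 15.7 ± 1.12 TPM, against 11.9 ± 1.24 TPM in controls (SD, n = 3 each), by 0.37 (SE 0.0880, limma adjusted p = 0.00730). CDH17, an intestinal cadherin, and TSPAN1, a tetraspanin, had log2 fold changes of -0.30 and 0.27 and did not pass (limma adjusted p = 0.0644 and 0.174).

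Of 12 goblet and secretory genes 2 were tested, and 1 rose in HCT15, where 5.39% of all tested genes rose. AGR2, a protein disulfide isomerase of mucin-making cells, rose to 30.2 ± 2.58 TPM in HCT15 RNF26 libraries, against 21.8 ± 1.33 TPM in HCT15 controls (SD, n = 3 each), by 0.45 (SE 0.0876, limma adjusted p = 0.00245), and was at or near 0 in HCT116. SPINK4, a secreted protease inhibitor, had a log2 fold change of 0.83 (limma adjusted p = 0.0977). The gel-forming mucin gene MUC2 reached at most 0.04 TPM.

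In the mucin, CEACAM and galectin families few members were expressed. Of 15 mucin genes 5 were tested, and MUC13 and MUC20 fell in HCT15, where 31.2% of all tested genes fell. MUC1 (-0.35), MUC4 (0.15) and MUC3A (-0.03), which was below 1 TPM in all HCT15 libraries, did not pass. MUC20, a membrane mucin, fell to 11.5 ± 1.60 TPM in RNF26 libraries, against 17.8 ± 1.14 TPM in HCT15 controls (SD, n = 3 each), by 0.59 on the log2 scale (limma adjusted p = 0.00216), a call that ended with quantile normalization (adjusted p = 0.0783) and with the GC and length correction (adjusted p = 0.148). Of 12 CEACAM genes 1 was tested, CEACAM19, with 1.75 ± 0.304 TPM in HCT15 RNF26 libraries and 2.45 ± 0.359 TPM in HCT15 controls (SD, n = 3 each, limma adjusted p = 0.0905), and the other 11 stayed below 1 TPM in all 12 libraries.

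Of 14 galectin genes 3 were tested and LGALS1 rose in HCT15, to 514 ± 22.5 TPM, against 324 ± 92.6 TPM in HCT15 controls (SD, n = 3 each), by 0.70 (SE 0.159, limma adjusted p = 0.00551), or 0.0691 in adjusted p when the HCT15 groups were fitted alone. LGALS3 and LGALS8 had log2 fold changes of 0.15 and 0.03 and did not pass, and 5.39% of all tested genes rose in HCT15. LGALS4 was thus a minor galectin, at 1.39 TPM against 385 TPM for LGALS3 in HCT15 RNF26 libraries.

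**Figure D5:**
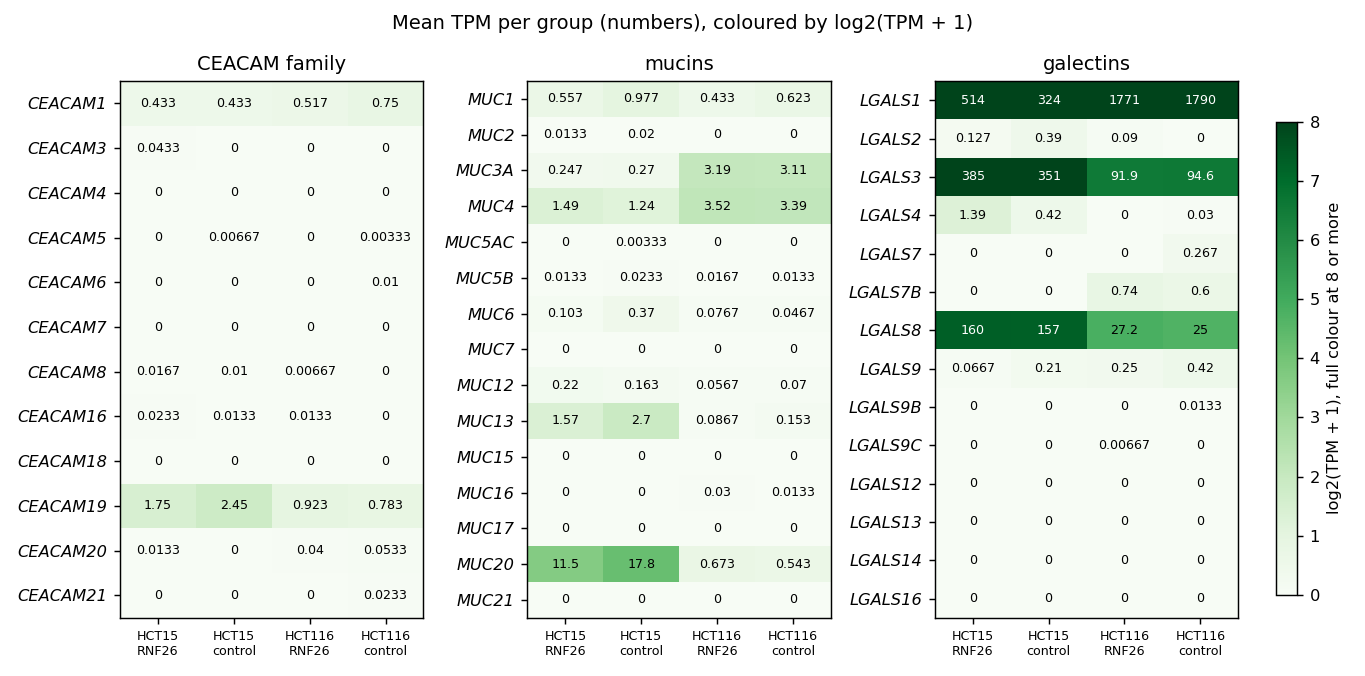
Mean TPM per group (numbers, with colour for log2(TPM + 1)) of all listed CEACAM, mucin and galectin genes, with columns in the order HCT15 RNF26, HCT15 control, HCT116 RNF26 and HCT116 control. CEACAM5 and CEACAM6 do not pass 0.01 TPM in any group, MUC13 is expressed in HCT15, and LGALS4 is highest in HCT15 RNF26 libraries.

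Of 12 general epithelial genes, all tested, 6 fell in HCT15 and 6 did not pass, with a median of -0.39, against -0.17 for all tested genes, of which 31.2% fell. ST14, a membrane serine protease, fell to 27.0 ± 0.530 TPM, against 64.3 ± 3.68 TPM in HCT15 controls (SD, n = 3 each), by 1.22 on the log2 scale (limma adjusted p = 3.19e-05). The tight junction claudin genes CLDN4 and CLDN3 fell by 0.61 and 0.54, and KRT19, a simple epithelial keratin, by 0.46 on that scale (limma adjusted p = 0.00108, 0.00320 and 0.00281). Corrected for GC content and length, ST14 alone of the 12 was called lower (-0.81) and KRT18 was called higher (0.28). In that setting 2406 of 14849 genes were called lower and 1767 higher. The KRT19 and CLDN3 calls also ended with median-ratio scaling (adjusted p = 0.0627 and 0.0668), and that of CLDN3 with quantile normalization (0.0627). EPCAM, a surface marker of epithelial cells given here for its level and outside the rule for named genes, averaged 551 ± 11.5 TPM in HCT15 RNF26 libraries and 555 ± 14.3 TPM in HCT15 controls (SD, n = 3 each), and was called higher, by 0.21 on the log2 scale, with median-ratio scaling.

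Of 18 apolipoprotein and liver-type genes, many of them HNF4A targets in liver, 2 were tested, and SERPINA1 rose in HCT15 to 7.16 ± 0.359 TPM, against 4.93 ± 0.299 TPM in HCT15 controls (SD, n = 3 each), by 0.46 (SE 0.135, limma adjusted p = 0.0205). That call ended with a pseudocount of 0.1 (adjusted p = 0.0983), with no filter (0.0536) and without HCT15 RNF26 replicate 1 or 2 or HCT15 control replicate 2 or 3 (0.0511 to 0.0652). APOM did not pass, with 0.60 (limma adjusted p = 0.161). In HCT15 5.39% of all tested genes rose and 31.2% fell. Of the immune markers, CD14 fell by 0.47 (log2, limma adjusted p = 0.00436), a call that ended with a pseudocount of 0.1, median-ratio scaling, quantile normalization and the GC and length correction (adjusted p 0.0711 to 0.460), and CD68 did not pass (adjusted p = 0.302).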

How the data were processed

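Poly(A) RNA of 12 libraries was sequenced after a stranded, paired-end library preparation, per the labels' protocols. The authors deposited 1 table of TPM with 1 column per library and 2 decimals, each column summing to about 1000000. The tools named in the submitters' processing notes are fastp, HISAT2, StringTie and RSEM, and the build named there is GRCh38. Versions, roles, annotation release and the strand setting of counting were not given in the sources used here. TPM keeps no depth, so depth is unknown and counting intervals cannot be computed, and each gene's value depends on the others in its library.

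Groups came from the sample titles. Symbols came from GENCODE 29 by Ensembl gene number. Log2(TPM + 1) was fitted for the 15584 genes that reached 1 TPM in at least 3 libraries, in 1 model over 4 groups with limma 3.58.1 in R 4.3.3 (eBayes with trend, 8 residual degrees of freedom, prior 3.09), two-sided, with Benjamini-Hochberg adjustment over all tested genes and calls at an adjusted p under 0.05. On this scale fold changes understate changes of low genes. Single genes were also compared by exact permutation of TPM (scipy 1.17.1), with a smallest p of 0.1. The code of the fit was run on simulated libraries with known changes, all drawn around the HCT15 control means. These held no difference between lines and no shift of many genes, so they bear on the code alone. No 2 libraries held identical values.

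The 8 genes, the 12 gene lists, the tests and the settings were chosen with earlier results of these data known, and some genes of the lists are not reported here and not counted in them. Named genes were the 8, RNF26, up to 4 genes of each list with the smallest p in HCT15, and for each tested gene the 3 others with the highest Pearson correlation. Alternatives were pseudocounts of 0.1 and 5, no filter or one of 5 TPM, median-ratio scaling over 7524 genes, quantile normalization, leaving out mitochondrial and ribosomal protein genes, a spline correction with 5 degrees of freedom for GC content and length over 95.3% of tested genes, eBayes without trend or robust, a replicate block, the 2 groups alone, and leaving out each library.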

Additional observations from a re-analysis of the deposited data

Results flagged for a closer look

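For 16 of the genes named above, the RNF26 effect differed between HCT15 and HCT116 by the test of the difference (limma, adjusted p under 0.05 over all tested genes, as for 20.5% of them). They are 16 of the 29 tested genes taken by the rule for named genes, and since that rule took the list genes by their p in HCT15, which enters this contrast, their number is a description. All values are differences of log2 fold changes of TPM + 1, HCT15 minus HCT116. Of the 8 colon genes these were CDX2 (-0.93) and HNF4A (-0.60), and both calls ended under several settings, as given above. Among the other intestinal factors they were KLF5 (-1.10), GATA6 (-1.02) and SOX9 (-1.05). The calls for KLF5 and SOX9 held in all 23 alternative settings, and the call for GATA6 in 22 of 23.

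Among surface and differentiation genes they were VIL1 (-1.54), ST14 (-1.22), MUC20 (-0.71), CLDN3 (-0.65), CLDN4 (-0.60) and CD14 (-0.55) with lower values in HCT15. They were SERPINA1 (0.82), LGALS1 (0.72), TSPAN1 (0.67), AGR2 (0.46) and CA2 (0.41) with higher values. TSPAN1 had log2 fold changes of 0.27 in HCT15 and -0.41 in HCT116, and was called in neither line. SERPINA1 had 0.46 in HCT15 and -0.36 in HCT116, where it was not called. For LGALS1 and CA2 the HCT116 values were -0.02 and -0.04. VIL1, MUC20, CD14 and AGR2 lay below 1 TPM in all HCT116 libraries and passed the filter through HCT15 alone. On this scale their differences thus mostly restate the HCT15 changes. The calls for VIL1, ST14 and SERPINA1 held in all 23 alternative settings, while those for LGALS1, CA2, TSPAN1 and AGR2 ended in 14, 12, 10 and 8 of the 23, and those for CD14, MUC20, CLDN3 and CLDN4 in 7, 3, 3 and 2.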

How the results depend on the processing

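CDX2, HNF4A and MUC13 kept their direction and their call in HCT15 and between lines in every alternative setting that tested them. MUC13 passed the filter through its HCT15 libraries alone, so its call between lines is a description. With no filter LGALS4 was called as well. In HCT116, none of the 8 genes that a setting tested was called in any alternative, and all but CDX2 and HNF4A lay below 1 TPM there. The number of these genes called for the difference between lines, 2 as reported, was 3 with a pseudocount of 5 and without a mean-variance trend. It was 0 with a pseudocount of 0.1, median-ratio scaling, quantile normalization, without mitochondrial and ribosomal protein genes and with the GC and length correction. With no filter it was 1 (LGALS4, higher). When 1 library was left out it was 0 to 2, with 0 without HCT116 RNF26 replicate 2. The number of genes called in HCT116, 1 as reported, was 11 with no filter, 3 with the HCT116 groups fitted alone and 1 to 3 when 1 library was left out. The number called for the difference, 3190 as reported, was 2080 with median-ratio scaling, 1932 with quantile normalization, 1642 with the GC and length correction and 1941 to 3857 when 1 library was left out (1941 and 2125 without HCT116 RNF26 replicate 2 or 1, 2089 without HCT116 control replicate 3); the cause was not tested. With each library left out in turn, 4384 to 5878 genes were called in HCT15, 10136 to 10859 between controls and 9890 to 10838 between RNF26 arms. The labels do not say whether replicate numbers pair the libraries. Same-numbered RNF26 and control libraries had correlations of deviations of 0.00895 to 0.146 in HCT15 and -0.0424 to -0.0254 in HCT116. Those of unlike numbers had -0.124 to 0.113 in HCT15 and -0.0261 to 0.055 in HCT116. With so few libraries a group, these values cannot settle whether the libraries were paired. With the replicate block, 5479 genes were called in HCT15, 1 in HCT116 and 2835 for the difference, and no call of the 8 genes changed. MUC13 was not tested with the filter of 5 TPM. Values under a few TPM depend on the pseudocount, and the depth behind them is unknown.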
